A study of Mus musculus with 7 samples.

Results

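Regions of the mouse genome that were bound by SOX2 in both replicates, and that held no peak of C-MYC or of RNA polymerase II (POLII) in any replicate, were described in iMOP cells. The iMOP line (immortalized multipotent otic progenitor) was derived from mouse inner ear progenitors through a *c-Myc* retrovirus. Chromatin immunoprecipitation sequencing (ChIP-seq) recovers the DNA that an antibody brings down with its protein, and a peak is where sequence tags pile up beyond background. SOX2 peaks of replicate 1 and replicate 2 were merged wherever they overlapped by 1 bp or more, and 16546 merged regions held a peak of both SOX2 replicates. Of these replicated SOX2 regions, 420 overlapped no C-MYC and no POLII peak, or 2.54% (95% Wilson confidence interval 2.31 to 2.79). These 420 regions were chosen by which peaks were called, so the peak calls and the tags behind them are a description and carry no test.

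All cells were grown as floating otospheres with B27 and 20 ng/ml of bFGF. The labels give 2 biological replicates for each of 3 antibodies, raised against SOX2 (clone 6F1.2), C-MYC (N-262) and POLII (clone 4H8), and do not say whether these came from separate cultures or from one clonal line. No condition differed between samples other than the antibody. Genes were not placed on the files' build, mm9, so the otic identity of the cells could not be checked against marker genes.

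SOX2 is an HMG-box transcription factor that binds DNA together with partner factors, often at enhancers far from promoters, and it maintains the sensory progenitors of the developing inner ear. C-MYC binds as a dimer with MAX, mostly at promoters of genes that are already transcribed. POLII gathers at promoters and is also found at active enhancers. A SOX2 region without either protein is therefore a site where SOX2 was detected apart from the other factor studied and apart from detectable polymerase.

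Across the 6 lists, peaks numbered 26637 to 53528 and the tags inside them summed to 1705241 to 4488517. SOX2 replicate 1 had 39878 peaks with 2758044 tags, and SOX2 replicate 2 had 26637 peaks with 1784465 tags. Total reads per sample are not in the files, so the tags summed over peaks stand in for depth, and the Wilson intervals given here cover counting error only. With 2 replicates per antibody no test between samples was run, and each value is given for each replicate.

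Of the replicated SOX2 regions, 13734 (83.0%) overlapped both a C-MYC and a POLII peak. Another 1502 (9.08%) overlapped C-MYC and no POLII, and 890 (5.38%) overlapped POLII and no C-MYC. The 420 regions with neither protein were thus the smallest of the 4 classes. Counted over SOX2 peaks of either replicate, 12165 merged regions had no C-MYC or POLII peak, and the 420 were 3.45% of those. Of the regions with a peak in SOX2 replicate 1 only, 32.9% (32.3 to 33.5) lacked both proteins, and in SOX2 replicate 2 only 40.8% (39.9 to 41.8) did. SOX2 regions without C-MYC or POLII were therefore mostly seen in a single replicate, and the 420 are those seen in both. Most SOX2 regions of any class were also seen in a single replicate. Of all 49850 merged SOX2 regions, 23259 had a peak in replicate 1 only, 10045 in replicate 2 only and 16546 in both.

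How many regions qualified depended on the lists that could remove them. Peaks of POLII replicate 1 alone removed 309 regions, peaks of POLII replicate 2 alone 321, peaks of C-MYC replicate 1 alone 100 and peaks of C-MYC replicate 2 alone 153. Without POLII replicate 1 there were 729 regions, and without POLII replicate 2 there were 741. When a region was removed only by C-MYC or POLII peaks found in both replicates, 1733 regions remained. In the opposite direction, 25 regions were left when only the upper 50% of each SOX2 list by score was used, the score being 10 times the −log10 of the peak's p-value.

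The SOX2 signal in the 420 regions was low in both replicates. In SOX2 replicate 1 they held from 10 to 547 tags with a median of 19, and in SOX2 replicate 2 from 13 to 416 tags with a median of 31. The fewest tags of any peak in these lists were also 10 and 13, so the weakest regions in each replicate lay at the floor of its list. The weakest regions of every other class of replicated SOX2 regions did so too. In replicate 1, 206 of the 420 regions (49.0%) were at or below the lowest quartile of the list, which was 18 tags. In replicate 2, 219 regions (52.1%) were at or below its lowest quartile of 31 tags. A total of 155 regions were at or below the quartile in both replicates, and 50 were above the median of the list in both.

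The replicates ranked the regions alike to a moderate degree. Across the 420 regions, Spearman's rho of the tags of replicate 1 and replicate 2 was 0.62, and that of the fold enrichment was 0.43. Regions are not independent replicates and share length and library, so these are descriptions. Replicate 2 held more tags than replicate 1 in 328 regions (78.1%). The share was 70.5% for regions with C-MYC and no POLII, 69.2% with POLII and no C-MYC, and 42.5% with both. The list of replicate 2 held fewer tags in all, over fewer peaks, with a median of 49 tags per peak against 35 in replicate 1. The summits of the replicates lay a median of 58 bp apart, and in 287 regions (68.3%) they were within 100 bp. Regions with both C-MYC and POLII had a median summit separation of 65 bp. Both summits had to lie in the same merged region, and the median region was longer with both proteins (1211.5 bp against 673.5 bp). The separations therefore cannot show whether placement was equally close in weak and in strong regions.

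**Figure D1:**
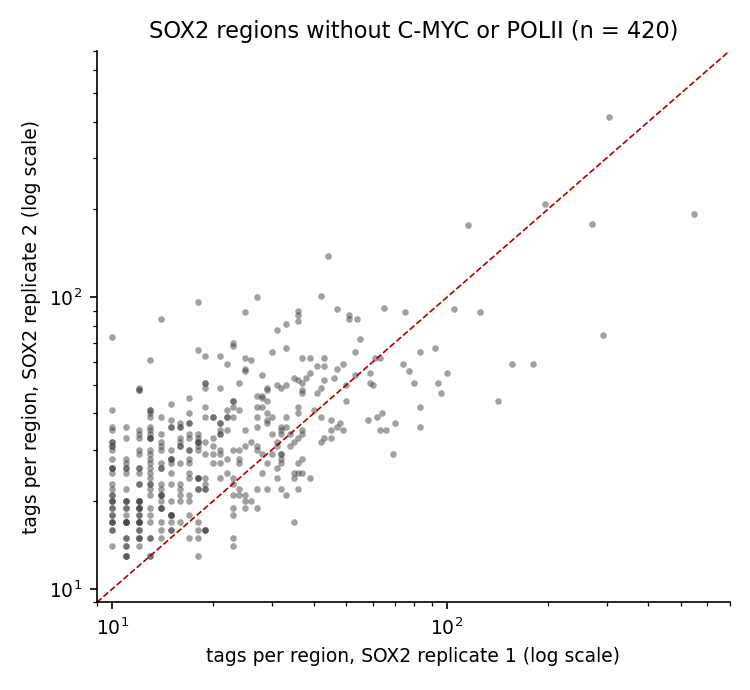
Tags per region in SOX2 replicate 1 (x axis, log scale) against SOX2 replicate 2 (y axis, log scale) for the 420 SOX2 regions without C-MYC or POLII, each point being 1 region and the dashed line equal tags. Most points lie above the line, as 328 regions held more tags in replicate 2, and a few regions with over 100 tags stand apart from the bulk near 19 and 31 tags.

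Tags per region differed between the 4 classes far more than fold enrichment did. The median of 19 tags in SOX2 replicate 1 compared with 25 tags for regions with POLII and no C-MYC, 30 for regions with C-MYC and no POLII, and 90 for regions with both. In SOX2 replicate 2 the medians were 31, 33, 40 and 67 tags in the same order. The order of the classes was the same in both replicates, with the regions lacking both proteins lowest. The size of the difference was not, since regions with both proteins held 4.74 times the median tags of the 420 regions in replicate 1 and 2.16 times in replicate 2. These tags were not scaled to region length, and regions with both proteins were longer. Per kb of region, the medians in the same order were 28.9, 34.8, 36.6 and 70.2 tags in replicate 1. In replicate 2 they were 43.2, 44.8, 48.6 and 56.1, so the classes lay closer together there. The quartiles of the 420 regions, 13 to 32 tags in replicate 1 and 21 to 42 in replicate 2, overlapped those of both single-protein classes. In replicate 1 they lay below those of the regions with both proteins, which were 43 to 164 tags, and in replicate 2 also, at 45 to 100 tags.

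The median fold enrichment of the 420 regions was 9.11 in replicate 1 and 6.80 in replicate 2, against 8.96 and 6.61 for all peaks of those lists. For regions with both proteins it was 10.1 in replicate 1 and 6.51 in replicate 2, so the direction of that difference was not shared by the replicates. The quartiles of all 4 classes overlapped, running from 6.87 to 11.1 in replicate 1 and from 5.55 to 8.34 in replicate 2 for the 420 regions. SOX2 peaks without C-MYC or POLII were thus few in tags and near the middle of their lists in fold enrichment.

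**Figure D2:**
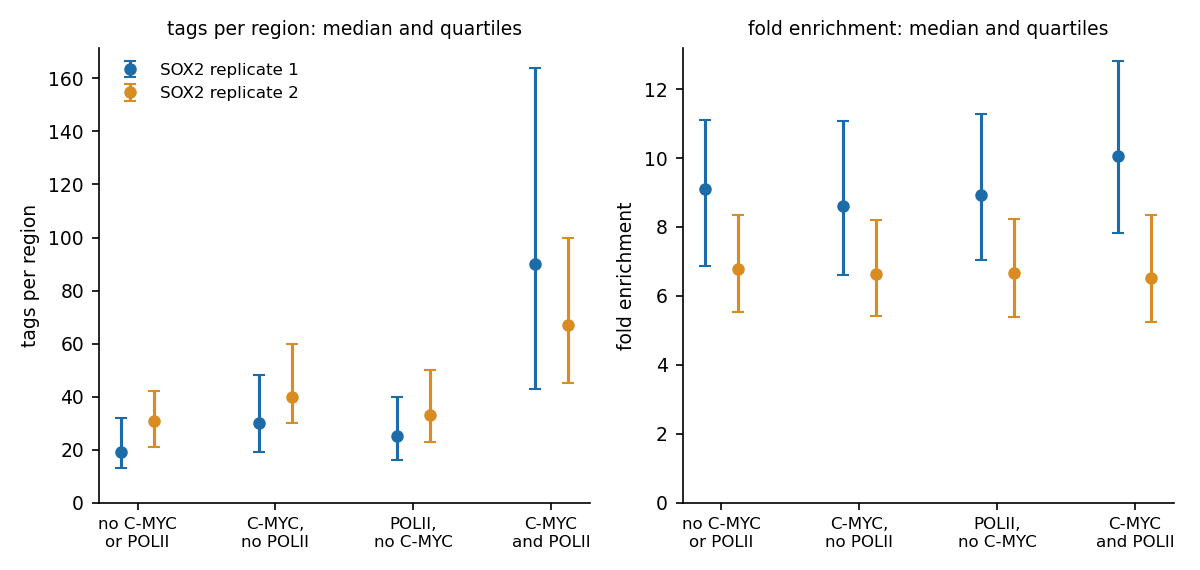
Median (points) and quartiles (bars) of SOX2 tags per region (left) and of SOX2 fold enrichment (right) in the 4 classes of replicated SOX2 regions, for each SOX2 replicate. Tags are lowest in the 420 regions without C-MYC or POLII, with medians of 19 and 31, and fold enrichment overlaps in all classes.

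The tags also followed the number of the other 4 lists that had a peak in the region. In SOX2 replicate 1 the median was 19 tags with 0 lists, 24 with 1, 31 with 2, 82 with 3 and 148 with 4. In SOX2 replicate 2 it was 31, 34, 42, 68 and 65 tags, so that from 3 to 4 lists no further increase was seen. The 883 regions hit by a single other list were close to the 420 regions in both replicates.

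Read the other way, the share of replicated SOX2 regions that lacked both proteins was highest where SOX2 tags were few. In the lowest 10% of regions by tags in SOX2 replicate 1, which held 10 to 19 tags, 221 of 1661 regions (13.3%, 11.8 to 15.0) had no C-MYC or POLII peak. In the lowest 10% by SOX2 replicate 2, which held 13 to 28 tags, 186 of 1689 did (11.01%, 9.61 to 12.6). In each step of the upper 40% of regions the share was under 1% in both replicates, and 4 and 5 regions were left in the highest 10%. These intervals cover counting error over regions only. The part of the calling threshold of the C-MYC and POLII lists in the missing peaks was not tested.

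**Figure D3:**
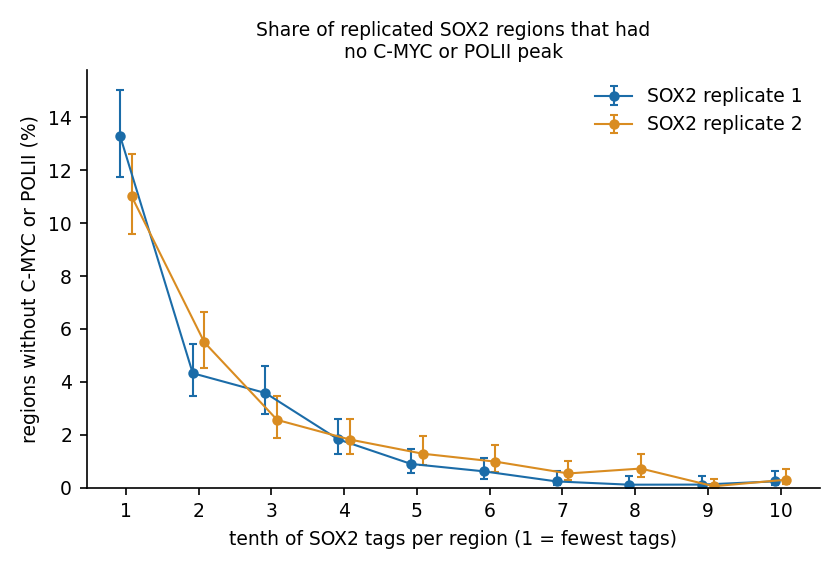
Percentage of replicated SOX2 regions with no C-MYC or POLII peak (y axis) in steps of 10% of the regions ordered by SOX2 tags (x axis), for each SOX2 replicate, with 95% Wilson intervals as bars. The share is 13.3% and 11.01% in the lowest steps and under 1% throughout the upper 40% of regions.

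The 420 regions were short. Their median length was 673.5 bp (quartiles 552.5 and 903), against 737.5 bp with POLII only, 812.5 bp with C-MYC only and 1211.5 bp with both proteins. A longer region meets other peaks more easily, so the length is tied to how the regions were chosen. Of the replicated SOX2 regions of up to 600 bp, 12.8% (153 of 1200) lacked both proteins, and of those over 1200 bp 0.576% (43 of 7466) did. Almost all were simple regions, since 418 of the 420 held exactly 1 peak of each SOX2 replicate.

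Within the 420 regions, fold enrichment tended to be higher in short peaks, with wide scatter. Spearman's rho of peak length and fold enrichment was -0.58 in replicate 1 and -0.36 in replicate 2. In the shortest 25% of the regions (348 to 551 bp) the median fold was 10.7 and 7.83 with a median of 12 and 20 tags. In the longest 25% (904 to 5690 bp) it was 6.58 and 5.95 with 40 and 52.5 tags. Fold did not follow tags in the same way in replicate 2, where regions with 81 or more tags had a median fold of 6.99 against 6.17 at 41 to 80 tags. The same sign was found in the other 3 classes, at -0.33 to -0.60 in replicate 1 and -0.28 to -0.47 in replicate 2.

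**Figure D4:**
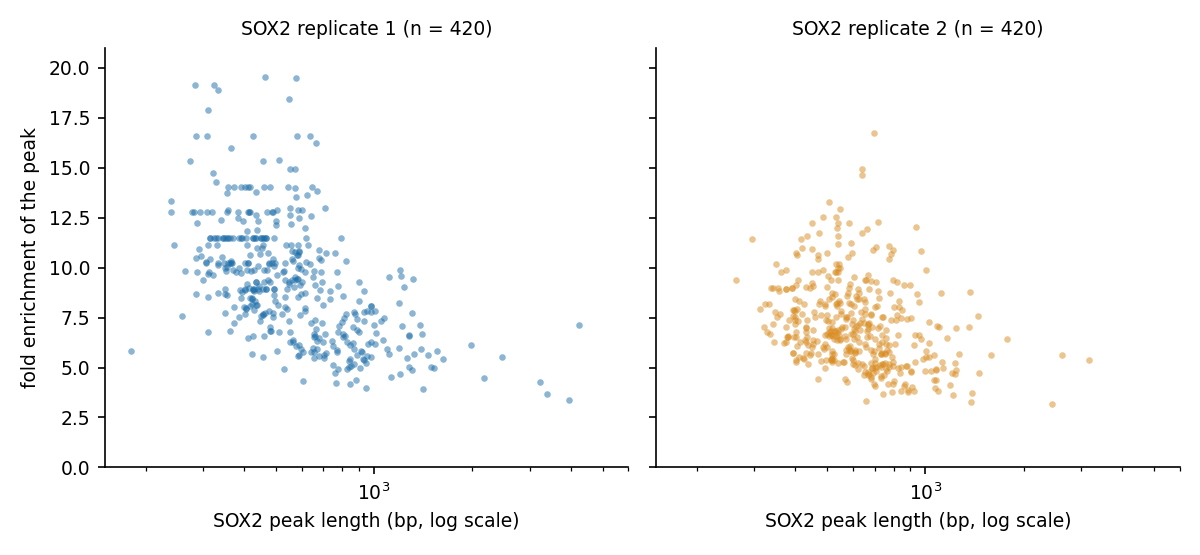
Fold enrichment (y axis) against peak length in bp (x axis, log scale) of the SOX2 peak with the most tags in each of the 420 regions, for SOX2 replicate 1 (left) and replicate 2 (right), each point being 1 region. Fold tends to be lower in longer peaks, with wide scatter (Spearman's rho -0.58 and -0.36), and the few peaks over 2000 bp have folds of at most 7.12 in replicate 1 and 5.62 in replicate 2.

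Fold enrichment was also compared at matched tags. Among regions with 21 to 40 tags in SOX2 replicate 1, the median fold was 7.76 without either protein (129 regions), 9.80 with both (2342 regions), and 8.55 and 8.67 with C-MYC only and POLII only. In the band of 41 to 80 tags it was 6.26 (46 regions), 9.47 (3135 regions), 6.88 and 7.10 in the same order. In SOX2 replicate 2, regions with neither and with both proteins gave 6.60 and 6.51, then 6.17 and 6.17. In these bands, a fold below that of the regions with both proteins was thus seen in replicate 1 and not in replicate 2. The single-protein classes were also low in replicate 1. The gap was small at up to 20 tags, the band with the most regions lacking both proteins in replicate 1 (227 regions). There the medians in replicate 1 were 10.21 with neither protein, 10.64 with both, 10.53 with C-MYC only and 10.21 with POLII only. In replicate 2 they were 7.46 with neither and 7.63 with both. The gap in replicate 1 was widest at 81 or more tags, at 5.465 (18 regions) against 10.26. At 21 to 40 tags the median length of regions with neither and with both proteins was 802 bp against 820 bp in replicate 1 and 661.5 bp against 815 bp in replicate 2.

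The 10 regions with the most SOX2 tags, ranked by the lower of the 2 replicates after scaling to tags in peaks, held 18.0% of the tags of all 420 regions in replicate 1 and 9.96% in replicate 2. The highest was chr2:26153529-26156789 (mm9), a region of 3261 bp with 305 tags in replicate 1 and 416 in replicate 2. Its fold enrichment was 4.26 and 5.36, and the nearest POLII and C-MYC summits lay 6578 and 12782 bp away. The second, chr11:3188409-3194098, was also the longest of the 420 at 5690 bp, with 547 and 193 tags. Its replicate summits lay 3489 bp apart, so here the replicates did not mark the same point. The third, chr5:30431306-30434743, held 272 and 178 tags over 3438 bp at a fold of 3.65 and 3.16.

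Lower in the same ranking, chr11:3026559-3028073 held 197 and 209 tags and lay 160335 bp from the second region, both close to the start of chromosome 11. The region chr5:134981272-134982726 stood out among the 10 by its fold of 9.45 and 6.99, with 126 and 89 tags and summits 9 bp apart in the replicates. In 9 of the 10 regions the fold was below the median of the 420 regions, in each replicate. The next, chr11:115811660-115812745, held 116 and 177 tags. A C-MYC summit lay 1492 bp from it and its edge was 116 bp from the nearest excluded peak. The region chr7:125246075-125248530 held 293 and 74 tags, and its nearest POLII and C-MYC summits were 12397 and 12755 bp away. The last of the 10 were chr1:182320364-182321386 with 105 and 91 tags, chr9:25185149-25186591 with 92 and 67 tags, and chr7:71218139-71222095 with 181 and 59 tags. The last of these was the second longest of the 420 at 3957 bp. The 10 regions ranked highest by tags were thus mostly broad and of low fold. The ranking did not scale tags to length, and longer regions among the 420 held more tags at a lower fold. Both traits are therefore tied to how the 10 were ranked. In 7 of the 10 replicate 1 held more tags, against the tendency of the 420 regions as a whole.

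Distances were measured from the mean position of the SOX2 summits in a region to the nearest summit of each other list. The nearest POLII summit of either replicate lay a median of 8394.5 bp away (quartiles 3971 and 17717.5), and the nearest C-MYC summit 12565 bp (5821.5 and 30615.75). Taken per list, the medians were 12742.5 bp for POLII replicate 1, 19411.5 bp for POLII replicate 2, 15146.5 bp for C-MYC replicate 1 and 14235.5 bp for C-MYC replicate 2. The C-MYC replicates differed little from each other, and the POLII replicates bracketed them. The POLII lists also differed at the 13734 regions with both proteins. There a summit of POLII replicate 1 lay within 1 kb of 20.7%, and one of POLII replicate 2 within 1 kb of 97.7%. The distance to POLII of either replicate therefore pools unlike lists. POLII replicate 1, which had the most peaks of all lists, held the nearest summit for 202 of the 420 regions (48.1%). Leaving out POLII replicate 1 moved the median POLII distance to 27524 bp, and leaving out POLII replicate 2 moved it to 13914 bp, each over the larger set of regions that then qualified.

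Few of the 420 regions lay beside a peak and few lay far from all of them. A C-MYC or POLII summit was within 1 kb of 16 regions (3.81%), within 5 kb of 168 (40%) and within 10 kb of 269 (64.0%). For 11 regions (2.62%) there was none within 50 kb. Within 10 kb, 144 regions had a summit of both proteins, 91 of POLII only, 34 of C-MYC only and 151 of neither. POLII was the nearer protein at 273 regions and C-MYC at 146. By list, the nearest summit was of POLII replicate 1 at 202 regions and of POLII replicate 2 at 71. For C-MYC replicates 1 and 2 the counts were 91 and 56. The count for POLII thus rested mostly on its replicate 1.

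**Figure D5:**
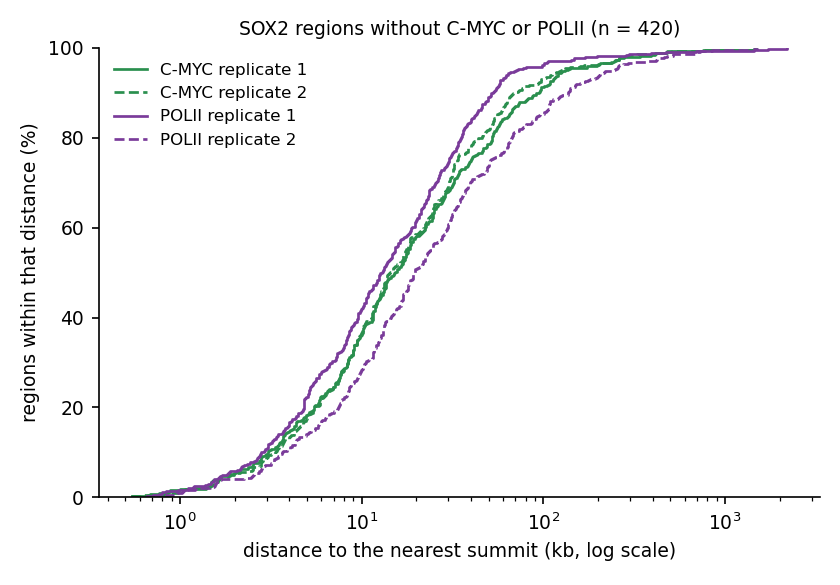
Cumulative percentage of the 420 regions (y axis) against the distance from the SOX2 summits to the nearest summit of each C-MYC and POLII replicate (x axis, kb, log scale). The C-MYC curves lie close together with medians of 15146.5 and 14235.5 bp, between POLII replicate 1 (12742.5 bp) and POLII replicate 2 (19411.5 bp).

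Distances to the nearest summit were also compared between classes that share the same exclusion. The 420 regions were set beside the 1502 regions that had C-MYC and no POLII, since overlap with POLII was barred for both. The nearest POLII summit was within 5 kb for 32.1% (27.9 to 36.8) of the 420 regions and 34.0% (31.7 to 36.5) of the 1502, with medians of 8394.5 and 7624.5 bp. Beside the 890 regions that had POLII and no C-MYC, the nearest C-MYC summit was within 5 kb for 21.7% (18.0 to 25.9) against 21.9% (19.3 to 24.7), with medians of 12565 and 13081 bp. Both pairs of intervals overlapped. At 100 kb the C-MYC pair did not, since a C-MYC summit lay within that distance of 94.5% (91.9 to 96.3) of the 420 regions and of 88.0% (85.7 to 90.0) of the 890. For POLII replicate 2 the 420 regions had the lower share at 100 kb. It was 85.2% (81.5 to 88.3) against 90.2% (88.6 to 91.6) of the 1502, without overlap. The intervals did overlap at 100 kb for POLII replicate 1 and for POLII of either replicate.

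Regions nearer to a peak had more SOX2 tags. For the 168 regions within 5 kb of a C-MYC or POLII summit, the median was 23 tags (SOX2 replicate 1) and 34 tags (replicate 2), and the 151 regions farther than 10 kb held 16 and 26. The median fold ran the other way, at 8.54 and 6.59 within 5 kb and at 10.2 and 6.99 beyond 10 kb. Between these groups both directions were the same in the replicates. The regions within 5 kb were also longer, with a median of 721 bp against 633 bp beyond 10 kb. The 11 regions beyond 50 kb held a median of 14 and 31 tags, so the fall in tags did not continue there in replicate 2.

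The boundary of the set was thinly populated. None of the 420 regions was within 10 bp of a C-MYC or POLII peak, 8 were within 100 bp and 47 within 1000 bp. The nearest, chosen after their values were seen, were chr9:109824923-109825564, 34 bp from a peak of POLII replicate 1, chr11:36034791-36035232, 47 bp from a peak of C-MYC replicate 1, and chr7:56954231-56955818, 50 bp from a peak of POLII replicate 1. They held 16 and 36, 26 and 32, and 25 and 89 tags in the SOX2 replicates. Just outside, chr12:91370940-91371486 was removed by an overlap of 23 bp with a peak of C-MYC replicate 1 and held 19 and 23 tags. Among the 883 regions hit by a single other list, the next smallest overlaps were 163 bp at chr3:9750622-9751952 and 189 bp at chr8:19759317-19759824. Many regions lay near the lowest score in the lists, which is 50. A score under 60 was found for 162 of the 420 regions (38.6%) in SOX2 replicate 1, for 161 (38.3%) in replicate 2, and for 68 in both. Over all peaks of these lists the lowest quartile of the score was 60.3 in replicate 1 and 61.1 in replicate 2. Low scores were thus common in the whole lists as well.

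The 420 regions were scattered. They were spread over 376 bins of 1 Mb, of which 40 held 2 or more, and no bin held more than 3. Only 6 regions had another of the 420 within 10 kb (1.43%). In the larger classes a region of the same class lay within 10 kb of 2.93% (C-MYC only), 3.93% (POLII only) and 19.1% (both proteins). A class with more regions has closer neighbours, so the scatter is tied to the small number of regions. The 6 regions made 3 pairs. On chromosome 15, the regions 77184919 to 77186283 and 77188921 to 77189756 held 44 and 33 tags in SOX2 replicate 1 and 139 and 67 in replicate 2, with POLII summits 963 and 2535 bp away. On chromosome 16, the pair from 89520343 to 89531332 held 57 tags in replicate 1 and 75 in replicate 2. The pair on chromosome 17, from 91236417 to 91243765, held 26 and 46 tags, with folds of 15.3 and 16.6 in replicate 1 and 12.3 and 14.6 in replicate 2. The first pair was thus rich in tags and the last poor in tags with high folds. From the peaks of a single SOX2 replicate, 9.85% (replicate 1) and 5.36% (replicate 2) of the regions without C-MYC or POLII had such a neighbour, over 8085 and 4536 regions.

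Replicated SOX2 regions of any class lay at distances from the 420 regions that fell among those of the other classes. The nearest was a median of 33102.5 bp away, against 31468 bp for regions with C-MYC only, 39438.5 bp with POLII only and 26603.5 bp with both proteins. One lay within 10 kb of 16.9% (13.6 to 20.8) against 21.8% (21.1 to 22.5) of the regions with both proteins. The shares were 20.8% (18.9 to 23.0) with C-MYC only and 19.1% (16.7 to 21.8) with POLII only, and these intervals overlapped that of the 420 regions. At 337 of the 420 regions (80.2%) the nearest replicated SOX2 region had both C-MYC and POLII, and such regions make up 83.0% of all. Within 50 kb, no C-MYC replicate 1 peak was found around 90 of the 420 regions (21.4%, 17.8 to 25.6), and none other than those on the region itself around 8.62% (8.16 to 9.10) of the regions with both proteins. For C-MYC replicate 2 the shares were 17.9% and 7.97%, and for POLII replicate 2 they were 25.5% and 12.9%. For POLII replicate 1 they were 10.95% and 10.3%, with overlapping intervals. Set beside the regions that had POLII and no C-MYC, the shares without C-MYC were 23.9% and 21.7% in the C-MYC replicates, with intervals that overlapped those of the 420 regions. Likewise, 21.9% (19.9 to 24.1) of the regions that had C-MYC and no POLII lacked a peak of POLII replicate 2, which overlapped the interval of the 420 regions (21.5 to 29.9).

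The 420 regions were found on every chromosome apart from Y, which had 2 replicated SOX2 regions in all. As a share of the replicated SOX2 regions of a chromosome they ranged from 1.56% on chromosome 11 (18 of 1156, 0.987 to 2.45) to 4.82% on chromosome 16 (28 of 581, 3.36 to 6.88). The interval of chromosome 16 lay above the 2.54% of the genome and that of chromosome 11 below it. These were the extremes of 20 chromosomes and were picked for that.

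The regions farthest from any C-MYC or POLII summit, chosen after their values were seen, were weak in tags. At chr14:92288356-92288975 the nearest C-MYC summit lay 1453548 bp away and the nearest POLII summit 393646 bp, with 18 and 17 tags and folds of 14.0 and 9.80. At chr2:81534284-81535097 the nearest summit, of POLII, was 295200 bp away, with 10 and 31 tags. At chr16:40968098-40968596 the nearest, of C-MYC, was 259546 bp away, with 10 and 20 tags. SOX2 peaks at these positions were called in both replicates with summits 94, 277 and 50 bp apart.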

How the data were processed

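For each of the 6 ChIP replicates a separate peak list was deposited by the authors. Tags are deposited as raw counts per peak, not scaled for library size. The score is deposited as 10 times the −log10 of the p-value, which reaches at most 1e-05. The deposited fold enrichment is a linear ratio over a background that is not given in the sources used here, nor are the aligner and the peak caller. The build, mm9, is named in the submitters' processing notes. Input DNA was not analysed here. No mm9 genome or annotation was used, so no gene or sequence was assigned.

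Merging, overlap (1 bp), distances and Wilson intervals were computed with scipy 1.17.1, pandas 2.3.3 and numpy 2.4.6 under python 3.11.15. Tags were summed over a replicate's peaks in a region, and fold, score and summit are those of its peak with the most tags. The members were checked with bedtools 2.31.1, which gave the same 420 regions, and the scripts were tested on simulated data, where 7 of 7 quantities were recovered. No test was run, since each antibody has 2 replicates. Regions named are the 10 with the most tags, the 3 longest, the 3 pairs and those at the limits of the rule. The members and lists were chosen with earlier results of these data known. The alternatives were other overlaps, scores, distances and replicates.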

Additional observations from a re-analysis of the deposited data

How the results depend on the processing

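Of 90 recomputed values of 8 summary results, 60 stayed within the spread between replicates or within 1.5 times the count, and 30 moved. The cause of the moves was not tested. Each spread was the standard deviation of only 2 values. For the share of regions, these were the shares with 1 SOX2 replicate left out (17.0% and 20.3%), with a spread of 2.29. Shares of 0.296% and 4.48% therefore counted as unmoved from 2.54%, and the 60 values are no measure of robustness. Leaving out 1 replicate gave 520 to 8085 regions, or 3.14% to 20.3% of the SOX2 regions, with a median length of 477 to 755 bp. Over the same choices, a neighbour within 10 kb was found for 1.05% to 9.85%, the median distance was 8013.5 to 27524 bp to POLII and 10465 to 14549 bp to C-MYC, and the median tags were 15 to 23 in SOX2 replicate 1 and 25.5 to 36 in replicate 2. With the 50% of each SOX2 list with the highest score, 25 regions remained (0.296%), with a median of 36 and 40 tags and a C-MYC distance of 11788 bp. With C-MYC and POLII peaks of both replicates as the only grounds for removal, there were 1733 regions (10.5%) with a median length of 773 bp, and the nearest of all summits, the tolerated ones included, then lay a median of 173 bp (POLII) and 3813 bp (C-MYC) away. The C-MYC distance was 13427 bp without peaks within 1000 bp, and 11654 bp from edge to edge. An overlap of 50% of the shorter peak gave 415 regions, of which 411 were the same. The SOX motif could not be searched without a genome of the build. No paired analysis was possible because the results come from no test. Total reads are not known, and the weakest regions rest on 10 tags in SOX2 replicate 1 and 13 in replicate 2.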
